A study of Gorilla gorilla gorilla with 13 samples.

Results

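Neurons (N) were compared with basal radial glia (bRG), both sorted from gorilla cerebral organoids, by bulk RNA-seq. The members are the 6 libraries that the labels place in these groups, of 13 in the series: 2 of N, labelled as BCL11B+ neurons, and 4 of bRG. The other 7 libraries, 3 of basal intermediate progenitors (bIP) and 4 of apical radial glia (aRG), entered the same fit and are cited as levels beside the N and bRG values. All groups shared 1 induced pluripotent stem cell line, GC1, an embryoid body protocol with Matrigel embedding, and harvest at week 8 of culture, within 3 days, and no treatment or genotype set them apart. Cerebral organoids are self-organised cultures that hold part of the cell types of the developing forebrain. Each library was made with Smart-seq2 from RNA of 10000 sorted cells and 12 to 17 cycles of PCR, with no molecular identifiers. Whether the libraries of 1 group had separate cultures behind them is not stated in the labels, so the p-values below cover only the spread seen among libraries, and that spread may be technical.

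Basal radial glia are neural stem cells that lie away from the ventricle of the developing cortex. They keep a basal process, divide, and give rise to neurons directly or through intermediate progenitors. When a cell leaves this state, the genes of its stem cell programme (SOX2, PAX6, Notch effectors of the HES family) are shut off, the cell cycle ends, and genes for axons, dendrites, ion channels and synapses come on in their place. Excitatory neurons born early in the cortex settle in the deep layers and are marked by BCL11B and TBR1.

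Total counts in the table of the human build hg38 were 9150566 and 12524938 in N and 5464721 to 10551184 in bRG. The N libraries are number 1 and 1 whose column bears a number that no N label has, here called the unnumbered one. Each library's values are given as CPM, its counts brought to a common total after TMM normalization, in the order of number 1 and the unnumbered library for N, and of numbers 1 to 4 for bRG. Library 3 of bRG stood apart, at 67.7 on the second principal component against -18.3 to 6.58 in the other 12 libraries. In the table of the gorilla build gorGor6, MALAT1, a nuclear long noncoding RNA, took 21.3% of its counts, against 6.35 to 10.8% in the others. In the hg38 table library 3 of bRG had the fewest genes with a count, 16534, against 17055 to 17756. Each count below was also taken without library 3 and without each other library, and is given where that moved a count of 3 or more by over 1.5 times or brought a lower count to 3 or more. A fold change is likewise given again where leaving out 1 library moved it by over 1.5 times. In bulk samples, fewer cells of a type and less RNA per cell cannot be told apart, and levels here are relative to each library's total.

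Of 16804 genes tested, 1787 were higher in N (10.6%) and 1534 lower (9.13%), 19.8% in all, by edgeR's quasi-likelihood test at a Benjamini-Hochberg adjusted p under 0.05. Genes that were lower changed by more: the median log2 fold change (N minus bRG) was -2.42 among the lower and 1.62 among the higher, against -0.09 over all tested genes. A change over 16-fold was measured for 193 lower genes and 26 higher ones, and 1004 and 618 passed 4-fold. Among the higher calls 235 lay under 2-fold, and 44 among the lower. The levels of the 2 N and 4 bRG libraries did not overlap in 36.5% of tested genes, 3348 of them higher (19.9%) and 2781 lower in N (16.5%). Without bRG library 3, 4500 genes were called (26.8%), 2363 higher (14.1%) and 2137 lower (12.7%), and 3217 of the 3321 calls were among them with the same sign. The count depended more on the N libraries, with 1956 calls without number 1 and 1698 without the unnumbered one. The lists described below hold 1471 genes in 50 groups, of which 1453 were in the table and 1427 were tested, 330 of them higher and 282 lower in N. Each list is given by its counts of called genes, with the median log2 fold change of its tested members in brackets.

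**Figure D1:**
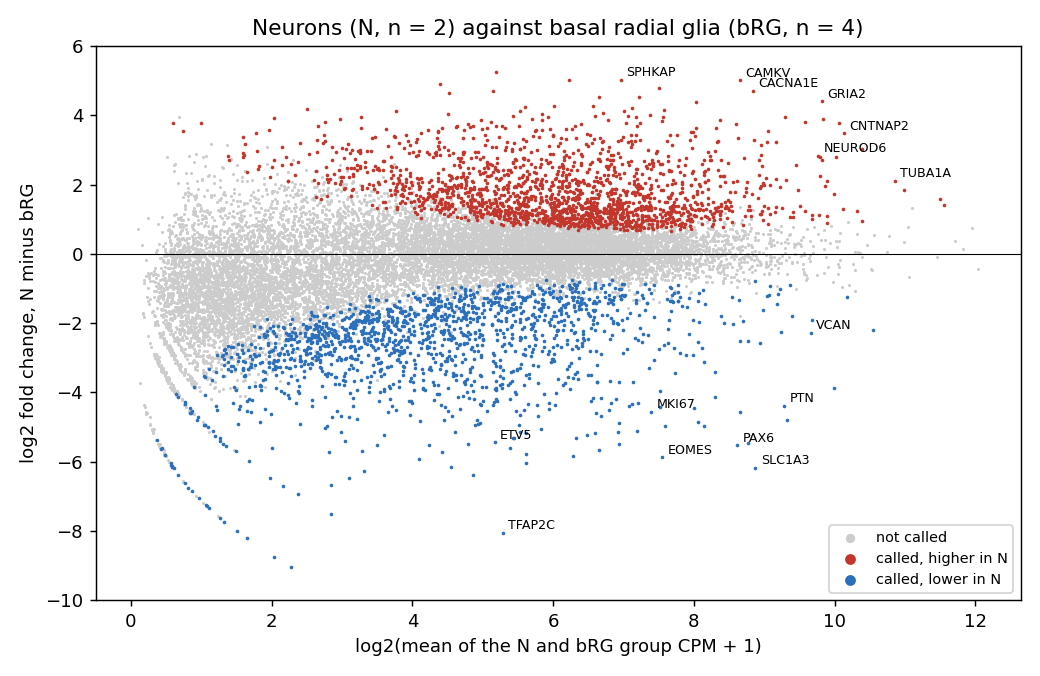
Each point is 1 of 16804 genes, by the log2 of the mean of the N (n = 2) and bRG (n = 4) group CPM plus 1 (x axis) and the log2 fold change, N minus bRG (y axis), coloured by edgeR call. Called genes lower in N (1534) reach further from 0 than called genes higher in N (1787), and the most abundant called genes lie on the higher side.

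Receptor, channel and synapse genes were among the leading rises. The leading 15 genes in each direction are those with the largest fold change among called genes whose libraries did not overlap and whose level averaged at least 4 on the log2 CPM scale. GRIA2, the AMPA receptor subunit that limits calcium entry, measured 1614 and 1840.1 CPM in N, against 117, 92.3, 69.7 and 47.0 CPM in bRG (edgeR log2 fold change 4.41, SE 0.43, adjusted p = 2.04e-06). CAMKV, a kinase-like protein of synapses, measured 760.2 and 794 CPM in N, against 38.1, 25.7, 13.7 and 19.5 CPM in bRG (edgeR log2 fold change 5.01, SE 0.38, adjusted p = 2.68e-07). CACNA1E, the R-type calcium channel subunit, was at 787 and 978 CPM in N, against 29.1, 49.2, 25.1 and 32.4 CPM in bRG (edgeR log2 fold change 4.70, SE 0.31, adjusted p = 1.53e-07). All 3 were high in both N libraries and low in all 4 bRG libraries, and their groups did not overlap, as the rule for the 15 required. SPHKAP, an anchor of protein kinase A at neuronal membranes, had the largest rise of the 15, with 192 and 289.6 CPM in N, against 6.66, 13.01, 1.18 and 8.47 CPM in bRG (edgeR log2 fold change 5.03, SE 0.72, adjusted p = 7.11e-05), but without bRG library 3 it was below CAMKV and CAMK2B (4.67, against 4.81 and 4.71). CAMK2B, the beta subunit of calcium/calmodulin kinase II, measured 374 and 324 CPM in N, against 16.7, 16.2, 10.1 and 7.42 CPM in bRG (edgeR log2 fold change 4.79, SE 0.39, adjusted p = 4.25e-07). KCNH3, a voltage-gated potassium channel of the forebrain, had 333 and 238 CPM in N, against 12.1, 21.0, 11.6 and 5.33 CPM in bRG (edgeR log2 fold change 4.51, SE 0.53, adjusted p = 9.76e-06). In these genes too each N library was above each bRG library, again as the rule required. The others were ADAMTS3 (4.54), which encodes an extracellular protease that cleaves reelin; the postsynaptic adhesion gene SLITRK1 (4.39); BICDL1 (4.26), a dynein adaptor gene; the semaphorin receptor gene PLXND1 (4.22); UNC79 (4.15), of the NALCN sodium leak channel; the contactin gene CNTN1 (4.12); the Eph receptor gene EPHB6 (4.06); ARPP21 (4.01), a cAMP-regulated phosphoprotein gene of neurons; and RAP1GAP (3.98), which codes for a Rap GTPase inhibitor. The value in brackets is each gene's log2 fold change, here and below.

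Transcription factors of progenitors were among the leading falls. TFAP2C, a transcription factor of radial glia and intermediate progenitors, had the largest fall of the 15, with 0.490 and 0.0933 CPM in N, against 69.4, 62.6, 78.4 and 91.9 CPM in bRG (edgeR log2 fold change -8.05, SE 0.55, adjusted p = 1.53e-07). SLC1A3, the glial glutamate transporter GLAST, had 12.3 and 13.2 CPM in N, against 649, 601, 1253 and 1194 CPM in bRG (edgeR log2 fold change -6.18, SE 0.46, adjusted p = 2.25e-07). ETV5, a transcription factor that ERK signalling turns on, was at 1.23 and 1.87 CPM in N, against 67.5, 85.3, 76.0 and 44.9 CPM in bRG (edgeR log2 fold change -5.44, SE 0.68, adjusted p = 1.84e-05). In the bRG libraries SLC1A3 fell into a lower pair (1 and 2) and a higher pair (3 and 4). Every bRG library was far above both N libraries in the 3 genes, where the rule for the 15 required that the groups not overlap. PAX6, a transcription factor of cortical progenitors, measured 19.7 and 13.7 CPM in N, against 713, 598, 1088 and 673 CPM in bRG (edgeR log2 fold change -5.52, SE 0.40, adjusted p = 2.14e-07). ZFHX4, a large zinc-finger homeobox factor, had 22.7 and 15.5 CPM in N, against 791, 673, 1208 and 720.5 CPM in bRG (edgeR log2 fold change -5.48, SE 0.49, adjusted p = 1.02e-06). In both, the library with the highest bRG level was number 3 and no N library came near the bRG range. PROM1 (-5.83, the apical membrane protein prominin 1), LRIG3 (-6.05, a transmembrane regulator of growth factor receptors), DHRS3 (-5.77, a retinal reductase), NFATC4 (-5.67, a calcineurin-dependent factor), FAM111A (-5.61, a protease at replication forks), ADAMTS6 (-5.50, a matrix protease), SLC15A1 (-5.49, a peptide transporter), PLPP3 (-5.32, a lipid phosphatase), EOMES (-5.87) and HES1 (-5.32) completed the 15. In the gorGor6 table the fold change of PLPP3 was -3.62, a smaller fall than any of the 15 in the hg38 table. The group mean of bIP lay between those of bRG and N in all 30 leading genes. Single bIP libraries reached the N range in some of them. BICDL1 measured 140 to 202 CPM in bIP, against 184 and 171 CPM in N, and PAX6 16.2 to 20.1 CPM in bIP. On a log2(CPM + 1) scale where bRG is 0 and N is 1, bIP stood at a median of 0.845 for the rises and 0.837 for the falls. For TFAP2C the log2 fold change was -9.45 without N library 1 and -7.22 without the unnumbered N library, for PROM1 -6.55 without N library 1, for DHRS3 -6.78 without N library 1 and -5.11 without the unnumbered N library, for SLC15A1 -6.09 without N library 1 and for HES1 -6.30 without N library 1 and -4.68 without the unnumbered N library.

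**Figure D2:**
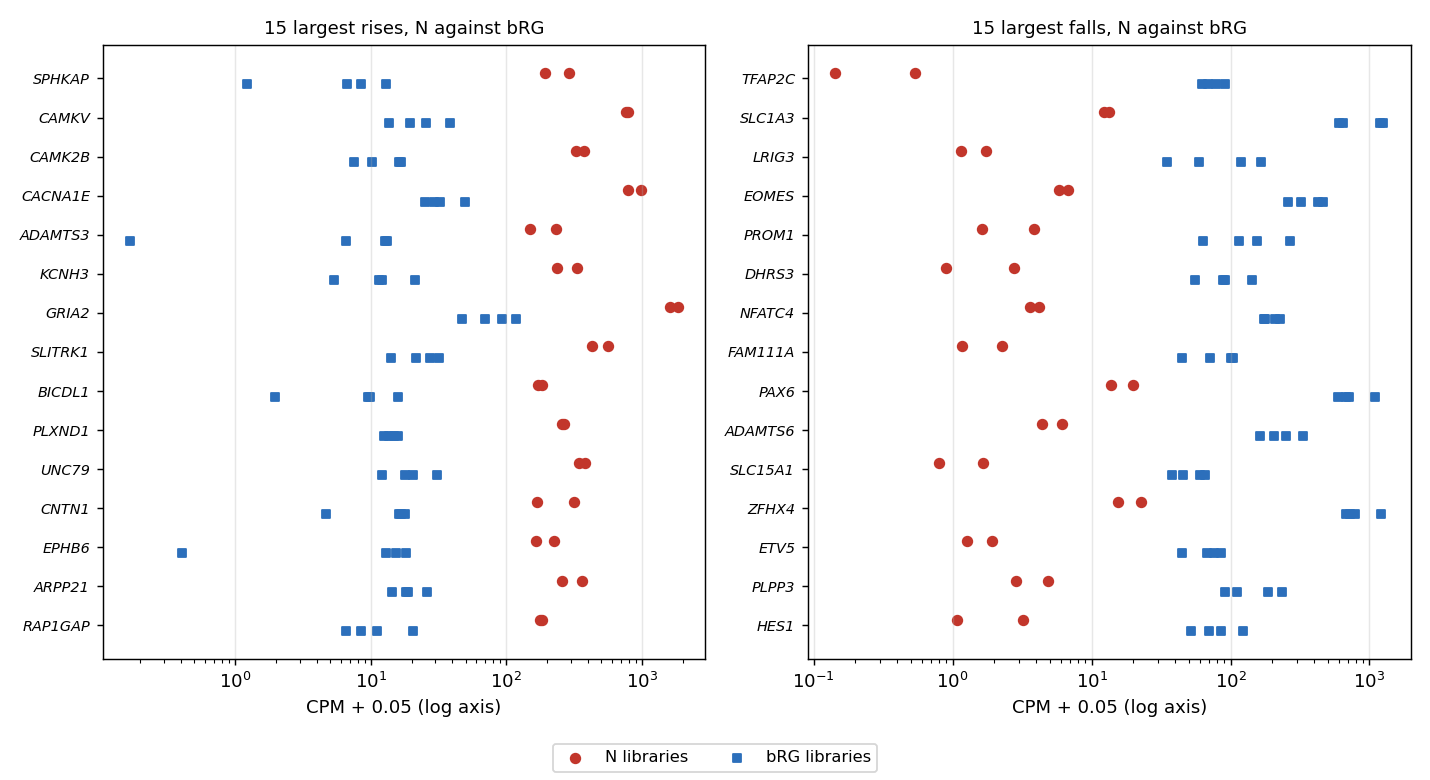
CPM plus 0.05 (log axis) of the 15 leading rises (left panel) and 15 leading falls (right panel), with 1 point per library, circles for N (n = 2) and squares for bRG (n = 4). The 2 groups do not overlap in any of the 30 genes, as the rule that chose them required, and in ADAMTS3 and EPHB6 1 bRG library lies far below the other 3.

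Stem cell genes fell together. The radial glia identity list held 18 falls and no rise among 18 tested (median -3.64), with 18 falls also without bRG library 3. SOX2, the stem cell factor, measured 12.4 and 4.20 CPM in N, against 367, 221, 329.7 and 212 CPM in bRG (edgeR log2 fold change -5.10, SE 0.58, adjusted p = 7.93e-06). HES1, the Notch effector that represses neurogenic genes, had 3.19 and 1.03 CPM in N, against 123, 70.3, 85.0 and 51.8 CPM in bRG (edgeR log2 fold change -5.32, SE 0.63, adjusted p = 1.13e-05). NES, the intermediate filament nestin, measured 1.23 and 1.31 CPM in N, against 47.7, 57.4, 32.2 and 43.8 CPM in bRG (edgeR log2 fold change -5.14, SE 0.50, adjusted p = 2.04e-06). No bRG library came near the N level in any of them. GLI3 (-4.14), a Hedgehog pathway repressor, fell too. VIM (-2.50), the filament vimentin, was at 44.2 ± 7.72 CPM in N and 249.7 ± 49.3 CPM in bRG (SD, n = 2 and 4) and so lower in N. Among the 18 genes tested of the outer radial glia list 11 fell and 1 rose (median -1.97). HOPX, the homeodomain protein used as a marker of basal radial glia, measured 3.43 and 5.22 CPM in N, against 56.1, 108, 41.3 and 57.7 CPM in bRG (edgeR log2 fold change -3.91, SE 0.56, adjusted p = 7.43e-05). In aRG it averaged 150 CPM (70.9 to 222), above its bRG mean of 65.7 CPM. The summed level of the outer radial glia list was also higher in aRG, 5655 to 8076 CPM, than in bRG, 2836 to 5136 CPM. PTN, the secreted factor pleiotrophin, had 34.3 and 78.6 CPM in N, against 1476, 647, 1266 and 1371 CPM in bRG (edgeR log2 fold change -4.40, SE 0.46, adjusted p = 3.73e-06), with both N libraries below every bRG library. TNC (-3.59, the matrix protein tenascin C), BMP7 (-4.32), MOXD1 (-4.19, a monooxygenase) and LGALS3BP (-4.67, a galectin ligand) fell, while SDC3 (2.06), the neuronal syndecan, rose. For SOX2 the log2 fold change was -6.06 without N library 1 and -4.50 without the unnumbered N library, for PTN -5.11 without the unnumbered N library and for TNC -4.43 without N library 1.

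Intermediate progenitor genes went both ways. Among 18 tested, 3 rose and 7 fell (median -0.70). Rises numbered 0 without N library 1 and 1 without the unnumbered N library, and the falls numbered 2 without the unnumbered N library. EOMES, the T-box factor that defines this cell type, measured 6.74 and 5.78 CPM in N, against 427, 320.4, 459.6 and 259.8 CPM in bRG (edgeR log2 fold change -5.87, SE 0.74, adjusted p = 1.97e-05). It was at 85.3 ± 49.1 CPM in bIP and 143 ± 84.4 CPM in aRG (SD, n = 3 and 4), and each bRG library was above every library of the other groups. NEUROD4, a proneural factor, was low throughout and lower in N, at 0.368 and 0.373 CPM in N, against 4.61, 9.45, 25.8 and 14.3 CPM in bRG (edgeR log2 fold change -5.14, SE 0.99, adjusted p = 0.00112). It stood at a fraction of a CPM in both N libraries, and its call was lost with the replicate number as a block (edgeR adjusted p = 0.0708). Of 11 tested bHLH factors 2 rose and 4 fell (median -0.24). The rises numbered 3 without bRG library 3, and the falls numbered 2 without the unnumbered N library. NEUROD6, a factor of differentiated excitatory neurons, measured 1455 and 1608 CPM in N, against 178, 159, 333 and 187 CPM in bRG (edgeR log2 fold change 2.84, SE 0.28, adjusted p = 2.04e-06). The related NEUROD2 measured 373 and 153 CPM in N, against 40.5, 30.6, 14.0 and 12.8 CPM in bRG (edgeR log2 fold change 3.43, SE 0.49, adjusted p = 7.08e-05). NEUROD6 and NEUROD2 were higher in each N library than in any bRG library. For NEUROD2 the log2 fold change was 2.66 without N library 1.

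Deep-layer factors rose more often than they fell, and upper-layer factors fell more often than they rose. Among the deep-layer and subplate factors 8 of 15 rose and 3 fell (median 1.08). BCL11B, the antigen that the N label names, is part of the sort and so no independent result; without it 7 of 14 rose. It measured 489 and 271 CPM in N, against 80.0, 61.5, 56.3 and 33.2 CPM in bRG. TBR1, which specifies layer 6 neurons, measured 411 and 325 CPM in N, against 55.7, 43.5, 44.4 and 23.5 CPM in bRG (edgeR log2 fold change 3.14, SE 0.38, adjusted p = 1.35e-05). SOX5 (1.99), LMO3 (2.77) and ST18 (1.76), transcriptional regulators of postmitotic or deep-layer neurons, rose as well, whereas FOXP1 (-1.62) and FOXP2 (-2.31), forkhead factors of several layers, fell. The call of FOXP2 was lost with the replicate number as a block (edgeR adjusted p = 0.0615). In both N libraries TBR1 stood well above the 4 bRG libraries. Among 12 upper-layer factors 1 rose and 4 fell (median -0.59). The falls numbered 1 without the unnumbered N library. LHX2 (-1.80), a LIM homeobox factor also of cortical progenitors, and CUX1 (-1.36) fell, but neither was called without the unnumbered N library (edgeR adjusted p = 0.101 and 0.0781). RELN, the secreted product of Cajal-Retzius cells, had 73.2 and 54.9 CPM in N, against 40.2, 72.0, 23.0 and 48.3 CPM in bRG and was not called (edgeR log2 fold change 0.48, SE 0.48, adjusted p = 0.514). In RELN the N and bRG groups overlapped, while bIP was far above both, at 2048 ± 1001 CPM (SD, n = 3). The calcium-binding protein gene CALB2, from the Cajal-Retzius list, measured 149 and 137 CPM in N, against 2.22, 9.90, 3.42 and 1.81 CPM in bRG (edgeR log2 fold change 5.03, SE 0.61, adjusted p = 1.52e-05), high in both N libraries and low in all of bRG. For CALB2 the log2 fold change was 5.84 without bRG library 2.

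**Figure D3:**
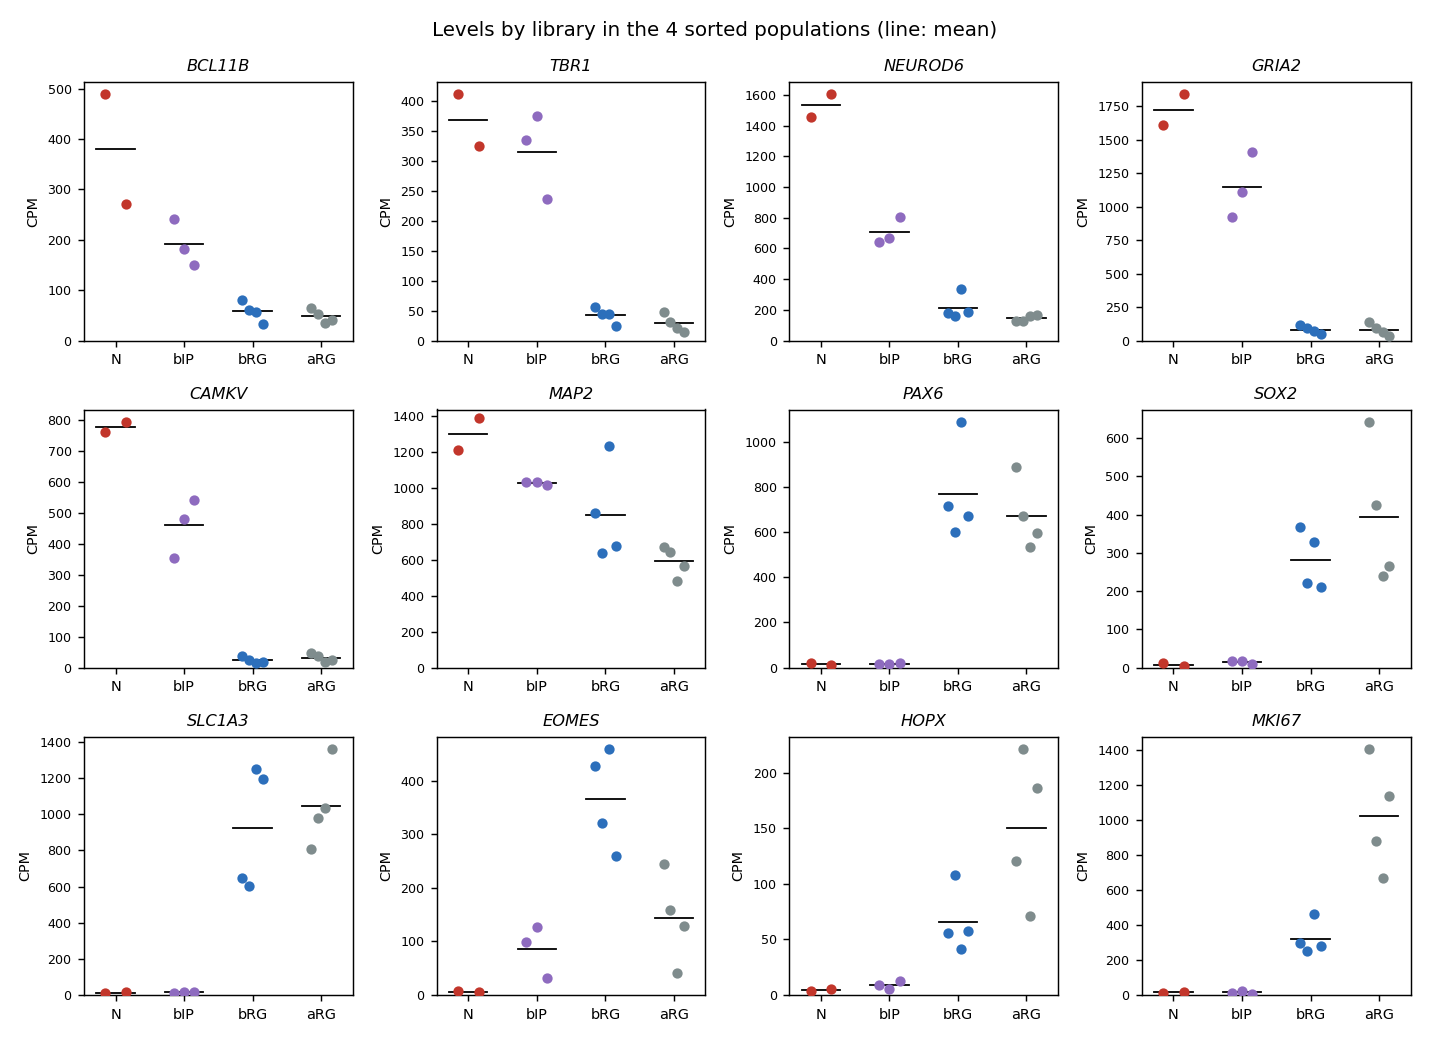
CPM by library (points, 1 panel per gene, linear axes from 0) with the group mean (line) in N (n = 2), bIP (n = 3), bRG (n = 4) and aRG (n = 4). By group mean BCL11B, TBR1, NEUROD6, GRIA2 and CAMKV are highest in N. For TBR1, bIP reaches 375 CPM, above the unnumbered N library at 325 CPM. PAX6, SOX2, SLC1A3, HOPX and MKI67 are near the bottom of the axis in N and bIP and high in bRG and aRG. EOMES is highest in bRG.

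Pan-neuronal genes rose in 10 of 18 cases and none fell (median 1.51). MAPT, the axonal microtubule-associated protein tau, measured 688 and 487 CPM in N, against 60.5, 73.4, 69.0 and 43.3 CPM in bRG (edgeR log2 fold change 3.26, SE 0.31, adjusted p = 1.83e-06). STMN2, a growth cone phosphoprotein, had 729 and 1042 CPM in N, against 96.4, 140.2, 83.7 and 83.9 CPM in bRG (edgeR log2 fold change 3.13, SE 0.40, adjusted p = 2.11e-05). SNAP25, a SNARE protein of vesicle fusion, was at 134 and 252 CPM in N, against 21.9, 32.0, 29.7 and 42.9 CPM in bRG (edgeR log2 fold change 2.60, SE 0.38, adjusted p = 8.47e-05). SYT1 (2.19), the calcium sensor of vesicle release, and INA (2.36), a neuronal intermediate filament, rose too, and no library of bRG reached an N library in MAPT, STMN2 or SNAP25. TUBB3 and MAP2, a tubulin and a microtubule-associated protein widely used to stain neurons, were not called. TUBB3 was at 15.2 and 10.5 CPM in N, against 5.98, 10.6, 6.96 and 12.3 CPM in bRG (edgeR log2 fold change 0.52, SE 0.56, adjusted p = 0.554). It had only 1060 counts over all libraries, and since tubulin genes share sequence, its level is uncertain. Its log2 fold change was 0.97 on gorGor6 and spanned 0.24 to 1.65 over the alternative fits. MAP2 measured 1211 and 1389 CPM in N, against 859, 638, 1230.3 and 677 CPM in bRG (edgeR log2 fold change 0.61, SE 0.27, adjusted p = 0.127). In both the groups overlapped, for MAP2 through bRG library 3 alone, and without that library MAP2 was called higher (log2 fold change 0.84, edgeR adjusted p = 0.00806).

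Glutamate receptor genes rose in 10 of 25 tested cases and none fell (median 0.86). Beside GRIA2, the AMPA receptor subunit GRIA1 measured 1882 and 2871 CPM in N, against 298, 155, 392 and 327 CPM in bRG (edgeR log2 fold change 3.02, SE 0.34, adjusted p = 6.68e-06). The kainate receptor subunit GRIK3 had 232 and 306 CPM in N, against 20.5, 27.3, 7.43 and 28.7 CPM in bRG (edgeR log2 fold change 3.68, SE 0.38, adjusted p = 3.24e-06). The NMDA receptor subunit GRIN2B had 192 and 182 CPM in N, against 23.9, 43.8, 27.5 and 16.6 CPM in bRG (edgeR log2 fold change 2.74, SE 0.32, adjusted p = 1.11e-05). Every N library exceeded every bRG library in these 3 genes. GRID1 (2.23), a delta-type receptor subunit, rose as well. Among receptors for GABA, glycine and acetylcholine and the metabotropic receptors, 18 of 33 rose and 6 fell (median 1.68). The rises numbered 11 without the unnumbered N library, and the falls numbered 2 without N library 1 and 3 without the unnumbered N library. CNR1, the cannabinoid receptor, measured 416 and 637 CPM in N, against 76.0, 52.8, 95.6 and 94.8 CPM in bRG (edgeR log2 fold change 2.72, SE 0.28, adjusted p = 2.65e-06). The GABA-A subunit GABRG1 (-3.89) fell, and the nicotinic subunit CHRNA4 (3.38) rose while CHRNA3 (-3.96) fell. CHRNA3 measured 25.6 and 18.7 CPM in N, against 373, 611, 108 and 282 CPM in bRG (edgeR log2 fold change -3.96, SE 0.82, adjusted p = 0.00197), with all bRG libraries above both of N.

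Potassium channel genes rose in 19 of 49 tested cases and fell in 2 (median 1.12). The falls numbered 3 without bRG library 3. KCNH7 (2.15), a relative of KCNH3, KCNJ3 (3.56), a G protein-gated channel gene, and KCNB2 (2.42), a delayed rectifier, rose. KCNJ10, the inward rectifier of glial cells, measured 1.47 and 2.05 CPM in N, against 25.1, 34.1, 43.9 and 64.1 CPM in bRG (edgeR log2 fold change -4.55, SE 0.47, adjusted p = 2.87e-06), the opposite direction. Sodium and calcium channel genes rose in 16 of 32 and fell in 2 (median 1.14). The falls numbered 4 without bRG library 3. SCN2A, the sodium channel of young axons, measured 329 and 369 CPM in N, against 20.7, 32.8, 26.4 and 18.0 CPM in bRG (edgeR log2 fold change 3.83, SE 0.32, adjusted p = 4.49e-07). SCN3B (3.64), a sodium channel beta subunit, and the calcium channel pore subunits CACNA1C (2.95) and CACNA1G (3.12) rose.

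The synaptic vesicle list held 31 rises and 2 falls among 53 tested genes (median 1.40). PCLO, a scaffold of the active zone, measured 911 and 765 CPM in N, against 86.6, 81.4, 136 and 43.3 CPM in bRG (edgeR log2 fold change 3.27, SE 0.40, adjusted p = 1.53e-05). SLC17A7, the vesicular glutamate transporter VGLUT1, had 304 and 236 CPM in N, against 66.5, 71.0, 23.5 and 24.6 CPM in bRG (edgeR log2 fold change 2.54, SE 0.40, adjusted p = 0.000196). SYT13 (3.08), a synaptotagmin, and SH3GL2 (3.37), an endophilin of vesicle recycling, rose, and the synaptotagmin SYT17 (-3.47) fell. In both genes given by library the groups were apart. Synaptic adhesion and scaffold genes rose in 27 of 56 cases and fell in 5 (median 1.39). The falls numbered 2 without N library 1 and 3 without the unnumbered N library. CNTNAP2, a neurexin-like adhesion protein of axons, was among the most abundant, at 1733 and 2369 CPM in N, against 229, 147, 204 and 159 CPM in bRG (edgeR log2 fold change 3.47, SE 0.34, adjusted p = 2.04e-06). The receptor phosphatase PTPRD (2.76), the pentraxin receptor NPTXR (2.63) and the receptor auxiliary protein SHISA7 (2.91, listed at 0 counts on gorGor6) rose, and the contactin CNTN4 (-2.81) fell. For SH3GL2 the log2 fold change was 2.78 without the unnumbered N library.

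Genes that steer axons changed in both directions, 25 higher and 11 lower of 61 tested (median 0.94). The falls numbered 5 without N library 1 and 4 without the unnumbered N library. The secreted guidance cue DRAXIN measured 582 and 459.5 CPM in N, against 87.5, 71.3, 60.9 and 51.8 CPM in bRG (edgeR log2 fold change 2.94, SE 0.35, adjusted p = 1.1e-05). SLIT1 (3.34), a repellent ligand, and NEO1 (2.58), a netrin receptor, rose. NRP1, the semaphorin and VEGF co-receptor, measured 28.1 and 24.7 CPM in N, against 177, 99.0, 170.1 and 127 CPM in bRG (edgeR log2 fold change -2.44, SE 0.32, adjusted p = 2.69e-05). EPHA3 (-3.50) and the ephrin EFNA4 (-3.49) fell with it. In DRAXIN and NRP1 the groups lay fully apart. Cadherins parted within subfamilies, with 14 rises and 9 falls among 37 (median 0.36). The falls numbered 4 without N library 1 and 5 without the unnumbered N library. The protocadherin FAT1 measured 12.9 and 11.8 CPM in N, against 160.3, 119, 361 and 251 CPM in bRG (edgeR log2 fold change -4.18, SE 0.49, adjusted p = 9.95e-06). Its relative FAT3 had 828 and 798 CPM in N, against 161, 183, 285 and 158 CPM in bRG (edgeR log2 fold change 2.05, SE 0.27, adjusted p = 3.13e-05). FAT1 was lower and FAT3 higher in each N library than in any of bRG. Likewise CELSR3 (2.58), needed for axon tracts in mice, rose and CELSR1 (-3.02, or -4.90 on gorGor6), which acts in planar polarity of progenitors in mice, fell. PCDH8 (3.56), CDH7 (2.54) and CLSTN2 (2.70) were higher in N, and CDH23 (-3.29) lower. For PCDH8 the log2 fold change was 4.18 without bRG library 1.

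Of 45 tubulin and microtubule-associated genes 24 were higher and 1 lower (median 1.18). TUBA1A, the main alpha tubulin of young neurons, measured 2216 and 3783 CPM in N, against 580.2, 584, 620.1 and 1013 CPM in bRG (edgeR log2 fold change 2.10, SE 0.37, adjusted p = 0.000484). The beta tubulin TUBB2A (2.59) rose too, and since tubulin genes share sequence, the split of reads among them is uncertain. CDK5R1, the activator of the neuronal kinase CDK5, had 297 and 289 CPM in N, against 48.5, 45.2, 40.2 and 58.2 CPM in bRG (edgeR log2 fold change 2.61, SE 0.24, adjusted p = 1.06e-06). STMN4 (2.44), a relative of STMN2, rose, and TUBA1A and CDK5R1 were higher in each N library than in any of bRG. The transport list held 10 rises and 2 falls of 21 (median 1.09). The rises numbered 6 without N library 1. The kinesins KIF3C (2.15) and KIF21B (2.25) and the dynein chain DYNC1I1 (2.77) were higher in N. Among actin and protrusion genes 15 of 47 rose and 6 fell (median 0.45). ACTB, cytoplasmic actin, measured 2658 and 3689 CPM in N, against 914, 1121, 813 and 728 CPM in bRG (edgeR log2 fold change 1.83, SE 0.36, adjusted p = 0.00144). MYO10, the motor of filopodia, had 64.1 and 51.0 CPM in N, against 501, 502, 529 and 484 CPM in bRG (edgeR log2 fold change -3.13, SE 0.32, adjusted p = 2.69e-06), with the 4 bRG libraries within a narrow range. The formin DIAPH3 (-3.28) and CDC42EP1 (-4.96) fell as well. For CDC42EP1 the log2 fold change was -4.33 without N library 1 and -6.39 without the unnumbered N library.

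Calcium/calmodulin-dependent kinases and their partners rose in 12 of 18 cases and none fell (median 1.64), with the calcineurin subunit PPP3CA (2.57) and the kinase CAMK1D (1.90) among them. Neuronal RNA-binding genes rose in 14 of 26 and none fell (median 1.68). Rises numbered 9 without N library 1. CELF2, a splicing regulator, measured 1509.8 and 1619.8 CPM in N, against 454, 397, 533 and 519 CPM in bRG (edgeR log2 fold change 1.72, SE 0.23, adjusted p = 3.95e-05). SRRM4, the activator of neuronal microexons, had 885 and 732 CPM in N, against 239, 219.8, 94.1 and 112 CPM in bRG (edgeR log2 fold change 2.28, SE 0.41, adjusted p = 0.000601). All 4 bRG libraries were below both N libraries in CELF2 and SRRM4. Progenitor RNA-binding genes held 1 rise and 3 falls of 19 (median -0.18), a share of 21.1%, near the 19.8% of all tested genes. The falls numbered 0 without the unnumbered N library. Chromatin genes held 7 rises and 8 falls among 48 (median 0.07). Rises numbered 3 without N library 1, 4 without the unnumbered N library and 3 without bRG library 4. DPF1, a subunit of the neuronal BAF chromatin remodelling complex, was at 212 and 181 CPM in N, against 29.6, 40.8, 14.6 and 24.1 CPM in bRG (edgeR log2 fold change 2.85, SE 0.36, adjusted p = 1.94e-05). Its partner ACTL6B measured 212 and 175 CPM in N, against 41.9, 46.2, 17.7 and 12.4 CPM in bRG (edgeR log2 fold change 2.72, SE 0.49, adjusted p = 0.000607). ACTL6A, the progenitor counterpart of ACTL6B, was not called, at 26.6 and 46.0 CPM in N, against 23.9, 24.1, 62.0 and 51.2 CPM in bRG (edgeR log2 fold change -0.15, SE 0.46, adjusted p = 0.852). REST, which silences neuronal genes in other cells, had 40.7 and 28.5 CPM in N, against 171, 108, 239.5 and 111 CPM in bRG (edgeR log2 fold change -2.19, SE 0.40, adjusted p = 0.000644). HMGA2, a chromatin protein of fetal stem cells, had 21.7 and 18.4 CPM in N, against 198, 133, 378 and 328 CPM in bRG (edgeR log2 fold change -3.69, SE 0.47, adjusted p = 2.36e-05). The gorGor6 table lists ACTL6B at 0 counts in total, so its rise rests on the hg38 table alone. In DPF1, ACTL6B, REST and HMGA2 the groups did not overlap, and in ACTL6A they did.

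In the Notch, Wnt, Hedgehog, FGF, BMP and Hippo lists more genes fell than rose. Of 27 Notch pathway genes 2 rose and 10 fell (median -0.91). The rises numbered 4 without bRG library 3. The ligand JAG2 measured 319 and 223 CPM in N, against 47.7, 61.2, 44.3 and 41.1 CPM in bRG (edgeR log2 fold change 2.48, SE 0.27, adjusted p = 5.77e-06). The receptor NOTCH1 had 40.9 and 31.9 CPM in N, against 296, 275, 246 and 406 CPM in bRG (edgeR log2 fold change -3.07, SE 0.34, adjusted p = 6.07e-06). JAG2 was higher and NOTCH1 lower in each N library than in any bRG library. The receptors NOTCH2 (-2.75) and NOTCH3 (-3.66) and the glycosyltransferase LFNG (-3.27) fell, and NOTCH2, which shares sequence with its duplicates in apes, was at -1.96 on gorGor6. Wnt pathway genes fell in 14 of 42 cases and none rose (median -0.85). Rises numbered 3 without bRG library 3, and the falls numbered 7 without N library 1 and 6 without the unnumbered N library. SFRP1, a secreted Wnt antagonist, measured 20.7 and 14.6 CPM in N, against 611, 175, 615 and 786 CPM in bRG (edgeR log2 fold change -4.96, SE 0.58, adjusted p = 9.8e-06). The receptors FZD8 (-4.53) and FZD2 (-2.68) and the transcription factor TCF7L1 (-4.38) fell, and SFRP1 was higher in each bRG library than in N. The Hedgehog list held 2 rises and 7 falls of 17 (median -1.44). PTCH1, a Hedgehog receptor, was at 9.80 and 9.14 CPM in N, against 49.9, 61.3, 36.2 and 53.5 CPM in bRG (edgeR log2 fold change -2.41, SE 0.40, adjusted p = 0.000315). Its groups did not overlap, and SMO (-2.46), the signal transducer, fell. For FZD8 the log2 fold change was -6.18 without N library 1 and -3.73 without the unnumbered N library.

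FGF and ERK response genes fell in 8 of 24 cases and rose in 4 (median -0.44). The rises numbered 1 without N library 1, 2 without the unnumbered N library and 2 without bRG library 4, and the falls numbered 4 without N library 1 and 5 without the unnumbered N library. The receptor FGFR3 measured 33.8 and 34.6 CPM in N, against 266, 155, 216 and 283 CPM in bRG (edgeR log2 fold change -2.75, SE 0.29, adjusted p = 4.15e-06), and FGFR1 (-2.92) and FGFR2 (-2.34) fell beside it, as did the target gene ETV5 above. Of 35 BMP and TGF-beta pathway genes 3 rose and 9 fell (median -0.89). Rises numbered 1 without N library 1 and 5 without bRG library 3, and the falls numbered 5 without N library 1. Of the ID genes, inhibitors of bHLH factors that BMP signals induce, ID2 measured 293 and 668 CPM in N, against 26.0, 36.5, 64.0 and 27.2 CPM in bRG (edgeR log2 fold change 3.64, SE 0.43, adjusted p = 1.09e-05). ID4 had 16.1 and 16.0 CPM in N, against 289, 277, 385 and 437 CPM in bRG (edgeR log2 fold change -4.43, SE 0.42, adjusted p = 1.61e-06). They moved in opposite directions, both without overlap. The receptor BMPR1B (-4.90) and SMAD3 (-2.32) fell. In the Hippo list 7 of 22 fell and 1 rose (median -0.53), or 3 rose without bRG library 3. It was led by YAP1, the growth-promoting coactivator, at 4.29 and 2.89 CPM in N, against 41.7, 38.4, 75.8 and 37.6 CPM in bRG (edgeR log2 fold change -3.75, SE 0.45, adjusted p = 1.14e-05). TEAD2 (-2.78, listed at 0 counts on gorGor6), a DNA-binding partner of YAP1, and AJUBA (-3.87), a LIM protein of the pathway, fell with it. Neuropeptide and growth factor genes divided into 11 rises and 8 falls of 39 (median 0.42). The falls numbered 4 without the unnumbered N library. The granins CHGA (3.62) and CHGB (3.12) and the prohormone convertase PCSK2 (3.09), of dense-core vesicles, rose, and the ligand PDGFD (-4.19) and the convertase PCSK1 (-3.31) fell. For FGFR1 the log2 fold change was -3.60 without N library 1, for ID2 2.93 without the unnumbered N library, for AJUBA -5.56 without N library 1 and -3.07 without the unnumbered N library and for PDGFD -3.33 without N library 1 and -7.36 without the unnumbered N library.

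**Figure D4:**
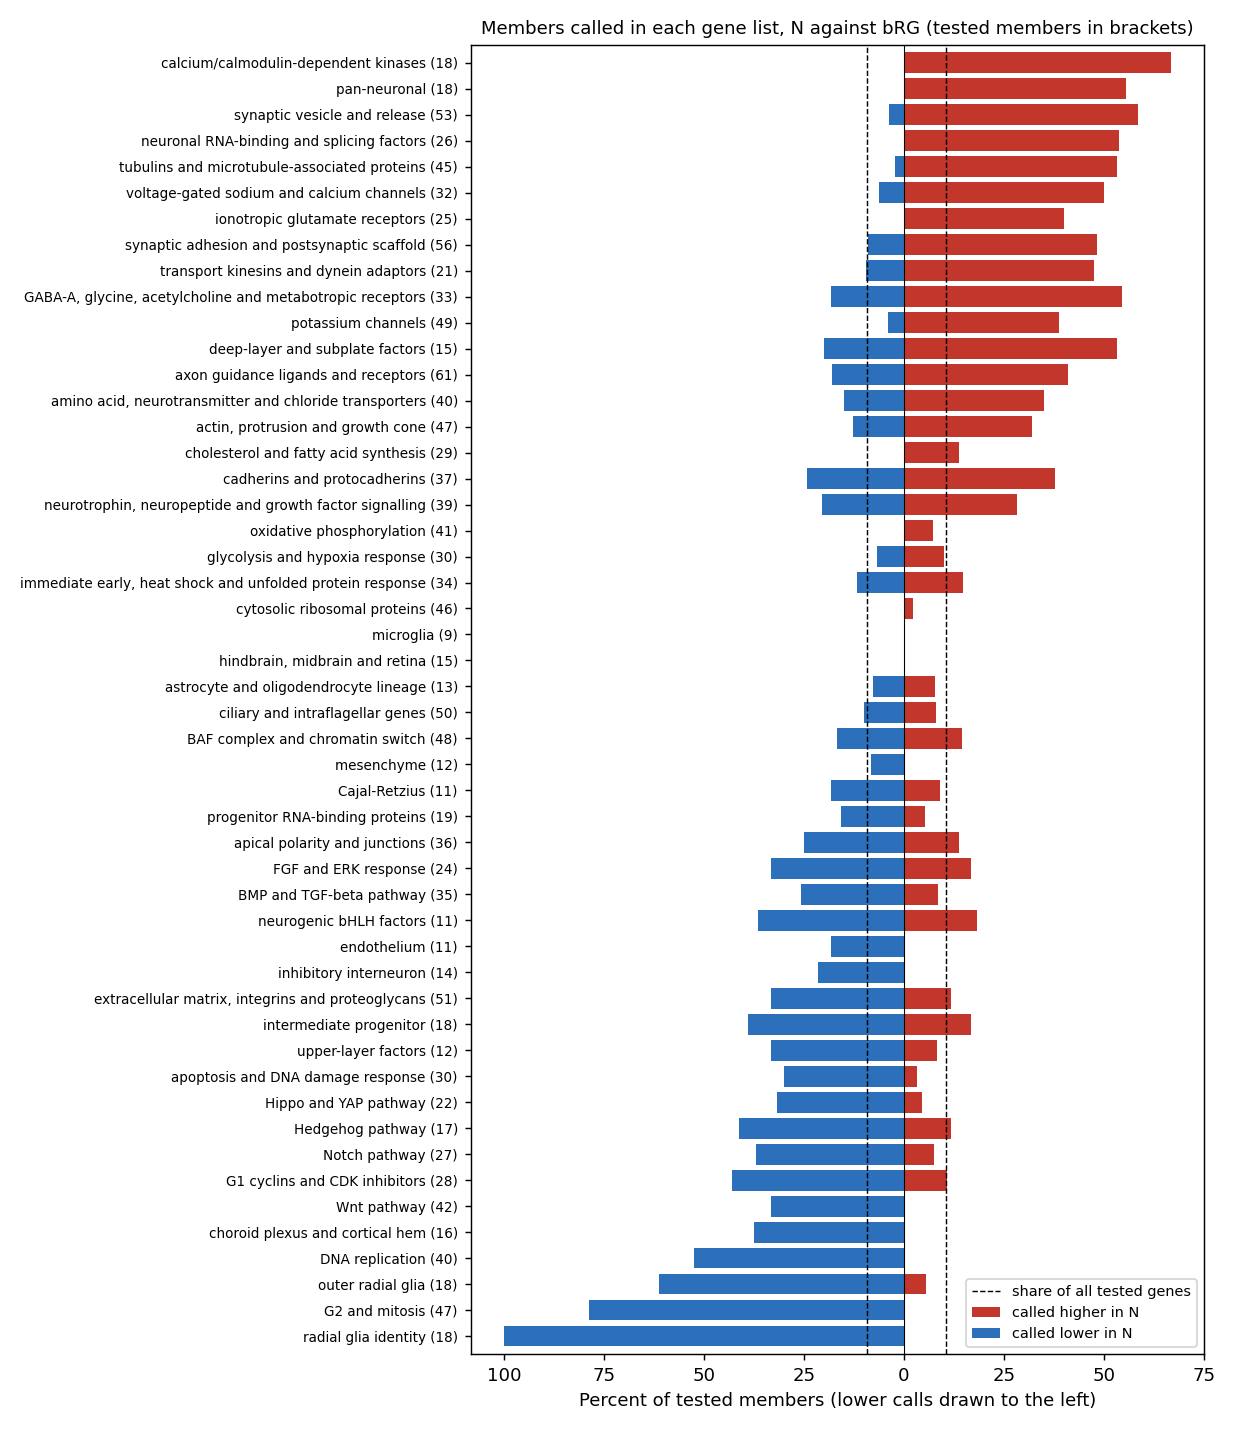
For each of 50 gene lists, the percent of tested members called higher in N (right, red) and lower in N (left, blue) by edgeR, with the number of tested members in brackets and dashed lines at the shares of all tested genes, 10.6% higher and 9.13% lower. Lists of synapse, channel, kinase and cytoskeleton genes extend to the right, and radial glia, mitosis, replication and Wnt lists to the left.

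Cell cycle genes were lower in N. Of 47 tested genes of G2 and mitosis 37 fell and none rose (median -2.87). MKI67, the proliferation marker Ki-67, measured 12.0 and 15.0 CPM in N, against 295, 248, 459.8 and 281 CPM in bRG (edgeR log2 fold change -4.57, SE 0.51, adjusted p = 6.94e-06). TOP2A, the topoisomerase of mitotic chromosomes, had 18.6 and 11.3 CPM in N, against 156, 146, 217 and 159 CPM in bRG (edgeR log2 fold change -3.50, SE 0.42, adjusted p = 1.34e-05). Every bRG library was above both N libraries in MKI67 and TOP2A. ASPM (-4.01), BUB1 (-3.84) and NUF2 (-4.37), genes of the spindle and its checkpoint, fell as well. MKI67 measured 14.0 ± 8.94 CPM in bIP and 1021 ± 319 CPM in aRG (SD, n = 3 and 4). DNA replication genes fell in 21 of 40 cases and none rose (median -1.41), with the helicase genes CDC45 (-4.48) and MCM3 (-3.36) and the checkpoint adaptor CLSPN (-3.98) among them. In the G1 list 3 of 28 rose and 12 fell (median -0.94). Rises numbered 1 without the unnumbered N library, and the falls numbered 7 without N library 1 and 6 without the unnumbered N library. CDKN2D, the inhibitor p19 of cyclin D kinases, measured 67.8 and 58.0 CPM in N, against 7.69, 6.45, 0.354 and 3.62 CPM in bRG (edgeR log2 fold change 3.81, SE 0.59, adjusted p = 0.000154). CDKN1A, the inhibitor p21, had 6.50 and 12.3 CPM in N, against 32.1, 36.6, 81.3 and 62.1 CPM in bRG (edgeR log2 fold change -2.49, SE 0.48, adjusted p = 0.0011). CDK6, a cyclin D kinase, had 3.19 and 3.08 CPM in N, against 33.2, 44.9, 94.8 and 26.8 CPM in bRG (edgeR log2 fold change -3.99, SE 0.56, adjusted p = 6.28e-05). The inhibitor genes CDKN2D and CDKN1A moved in opposite directions, each with no shared range.

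Matrix genes fell more often than they rose, 17 against 6 of 51 tested (median -0.74). The rises numbered 3 without N library 1 and 3 without the unnumbered N library. LAMB2 (-4.05) and LAMA1 (-4.24), laminin chains, COL11A1 (-4.86) and BCAN (-4.58, a brain proteoglycan) fell. VCAN, the proteoglycan versican, was the most abundant of these in CPM, at 220.0 and 329 CPM in N, against 1226, 697, 2406 and 1027 CPM in bRG (edgeR log2 fold change -2.29, SE 0.44, adjusted p = 0.00105). TNR (2.89), the neural tenascin R, rose. Apical junction genes held 5 rises and 9 falls of 36 (median -0.31). Rises numbered 3 without N library 1 and 3 without the unnumbered N library. The neuronal catenins CTNNA2 (3.02) and CTNND2 (2.19) rose, and CRB1 (-3.70), TJP1 (-2.19) and PARD3 (-2.91), of apical domains and tight junctions, fell. Ciliary genes held shares near those of all genes, with 4 rises and 5 falls of 50 (median 0.04). The rises numbered 1 without N library 1, 0 without the unnumbered N library and 2 without bRG library 1, and the falls numbered 3 without N library 1 and 2 without the unnumbered N library. RFX4, a ciliary regulator of neural progenitors, measured 12.7 and 13.4 CPM in N, against 132, 106, 214 and 124 CPM in bRG (edgeR log2 fold change -3.46, SE 0.34, adjusted p = 2.04e-06). For BCAN the log2 fold change was -5.37 without N library 1, and for PARD3 -3.60 without N library 1.

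Transporter genes rose in 14 of 40 cases and fell in 6 (median 0.28). The glutamate transporters divided, with SLC1A1, the neuronal form EAAC1, at 41.2 and 90.1 CPM in N, against 2.73, 4.78, 3.30 and 9.33 CPM in bRG (edgeR log2 fold change 3.68, SE 0.48, adjusted p = 3.17e-05), and SLC1A3 lower as given above. SLC12A5, the chloride exporter KCC2 of maturing neurons, measured 37.4 and 49.8 CPM in N, against 4.10, 9.90, 2.95 and 10.7 CPM in bRG (edgeR log2 fold change 2.65, SE 0.46, adjusted p = 0.000465). The N and bRG ranges were apart in both SLC1A1 and SLC12A5. SLC24A2 (3.96) and SLC8A1 (3.77), sodium/calcium exchangers, rose. The metabolic and ribosomal lists held 3 rises and 2 falls of 30 in glycolysis and 3 and 0 of 41 in oxidative phosphorylation (medians -0.41 and 0.45). They held 4 and 0 of 29 in cholesterol and fatty acid synthesis, and 1 and 0 of 46 among cytosolic ribosomal proteins (medians 0.57 and 0.31). The shares called were 16.7, 7.32, 13.8 and 2.17%, against 19.8% of all tested genes. In cholesterol and fatty acid synthesis all calls were rises, where 10.6% of all tested genes rose, or 14.1% without bRG library 3. The rises in oxidative phosphorylation numbered 7, and those in cholesterol and fatty acid synthesis 9, without bRG library 3, and the rises in glycolysis and in oxidative phosphorylation numbered 1 each without the unnumbered N library. Without N library 1 the rises in glycolysis numbered 1, and without bRG library 2 those in oxidative phosphorylation numbered 1 and the falls in glycolysis 3. The glucose transporter SLC2A1 (-2.65) fell. Without bRG library 3 the rises among ribosomal proteins numbered 3. Ribosomal protein genes share sequence with many processed pseudogenes, so their counts are uncertain. For SLC1A1 the log2 fold change was 3.02 without the unnumbered N library.

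Immediate early, heat shock and unfolded protein genes held 5 rises and 4 falls of 34 (median -0.01). The share called was 26.5%, against 19.8% of all tested genes. Rises numbered 3 without N library 1, 1 without the unnumbered N library, 3 without bRG library 1 and 3 without bRG library 4, and the falls numbered 2 without N library 1 and 1 without the unnumbered N library. ARC, an activity-dependent synaptic gene, was at 13.4 and 7.56 CPM in N, against 1.20, 1.11, 0.589 and 0.952 CPM in bRG (edgeR log2 fold change 3.43, SE 0.70, adjusted p = 0.00171). It was low in all libraries but higher in both of N, and the small heat shock protein gene HSPB1 (-1.40) fell. In the apoptosis and DNA damage response list 9 of 30 fell and 1 rose (median -0.60). The rises numbered 3 without bRG library 3, and the falls numbered 5 without N library 1 and 4 without the unnumbered N library.

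A chosen list of 59 X-linked genes was read in the table of the gorilla build gorGor6, since the hg38 table holds none of them. Their CPM is on that table's scale. The list is a selection with neuronal genes such as DCX and SYP in it, so its shares do not describe the whole chromosome. Of 58 tested 17 rose and 11 fell (median 0.17, against -0.37 over all 38520 tested genes of that table, of which 9.31% were called, 5.03% higher and 4.28% lower). Without bRG library 3, 20 rose and 11 fell, against 6.80% and 6.50% of that table's tested genes, 13.3% in all. Rises numbered 11 without N library 1 and 9 without the unnumbered N library. DCX, the microtubule-binding protein of migrating neurons, measured 612 and 548 CPM in N, against 148, 115, 96.5 and 109 CPM in bRG (edgeR log2 fold change 2.31, SE 0.29, adjusted p = 1.57e-05). SYP, the vesicle protein synaptophysin, had 410.3 and 256 CPM in N, against 87.8, 87.2, 30.7 and 33.8 CPM in bRG (edgeR log2 fold change 2.48, SE 0.38, adjusted p = 0.000134). The axonal adhesion molecule L1CAM had 174 and 116 CPM in N, against 16.6, 19.5, 9.61 and 8.50 CPM in bRG (edgeR log2 fold change 3.42, SE 0.47, adjusted p = 4.32e-05). The N libraries were above all bRG libraries in these 3 genes. GPC4 (-3.70), a glypican, and KIF4A (-3.83), a kinesin of mitotic chromosomes, fell.

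For other cell types that a sort could hold, 8 marker lists were counted, and the part of these markers in the results above was not tested. Of all tested genes 10.6% rose and 9.13% fell, or 14.1% and 12.7% without bRG library 3. The shares called were 37.5% for choroid plexus and hem, 27.3% for Cajal-Retzius and 21.4% for interneurons. They were 18.2% for endothelium, 15.4% for the astrocyte and oligodendrocyte lineage and 8.33% for mesenchyme, against 19.8% of all tested genes. Choroid plexus and cortical hem genes fell in 6 of 16 tested cases and none rose (median -1.91). The falls numbered 3 without N library 1. Their summed level was 258 to 443 CPM in N and 354 to 1488 CPM in bRG. OTX2 (-6.28), a factor of choroid plexus and hem, was in this group. For inhibitory interneurons 3 of 14 fell and none rose (median -1.46). The falls numbered 1 without the unnumbered N library and 5 without bRG library 3. Their summed levels were 11.5 to 19.4 CPM in N and 44.0 to 90.2 CPM in bRG. GAD1, the GABA-synthesising enzyme, measured 1.96 and 1.77 CPM in N, against 6.66, 4.67, 1.06 and 8.85 CPM in bRG (edgeR log2 fold change -1.50, SE 0.76, adjusted p = 0.18) and was called lower only when bRG library 3 was left out (log2 fold change -1.85, edgeR adjusted p = 0.0344). Cajal-Retzius genes, with 1 rise and 2 falls of 11 (median -1.63), summed to 223 to 274 CPM in N and 122 to 228 CPM in bRG. In bIP their sum was far higher, 1468 to 3892 CPM. The falls numbered 4 without bRG library 3, and 3 without N library 1 or bRG library 4. The astrocyte and oligodendrocyte lineage held 1 rise and 1 fall of 13 (median -1.14), and its sums were 259 to 291 CPM in N and 92.1 to 193 CPM in bRG. Mesenchyme genes held 1 fall of 12 (median -0.59), or 4 without bRG library 3 and 3 without the unnumbered N library, and summed to 52.1 to 97.0 CPM in N and 128 to 165 CPM in bRG. Of 11 endothelium genes 2 fell, or 6 without bRG library 3 and none without either N library (median -1.67), and their sums were 35.4 to 35.5 CPM in N and 43.5 to 119 CPM in bRG. No microglia gene and no gene of the hindbrain, midbrain and retina list was called by edgeR (medians -1.06 and -0.77). Of the 9 microglia genes tested 2 were lower at an unadjusted p under 0.05, and DESeq2 called 2 and voom 1 lower. Of the 15 hindbrain, midbrain and retina genes 4 were lower at that unadjusted p, and DESeq2 called 3 and voom 2 lower. Without bRG library 3 edgeR called 1 microglia gene and 3 of the other list lower. Summed levels were 55.6 to 67.0 CPM in N and 66.1 to 76.2 CPM in bRG for microglia, and 16.6 to 22.3 CPM in N and 20.6 to 89.4 CPM in bRG for hindbrain, midbrain and retina. No listed marker was at 0 in all 6 libraries.

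**Figure D5:**
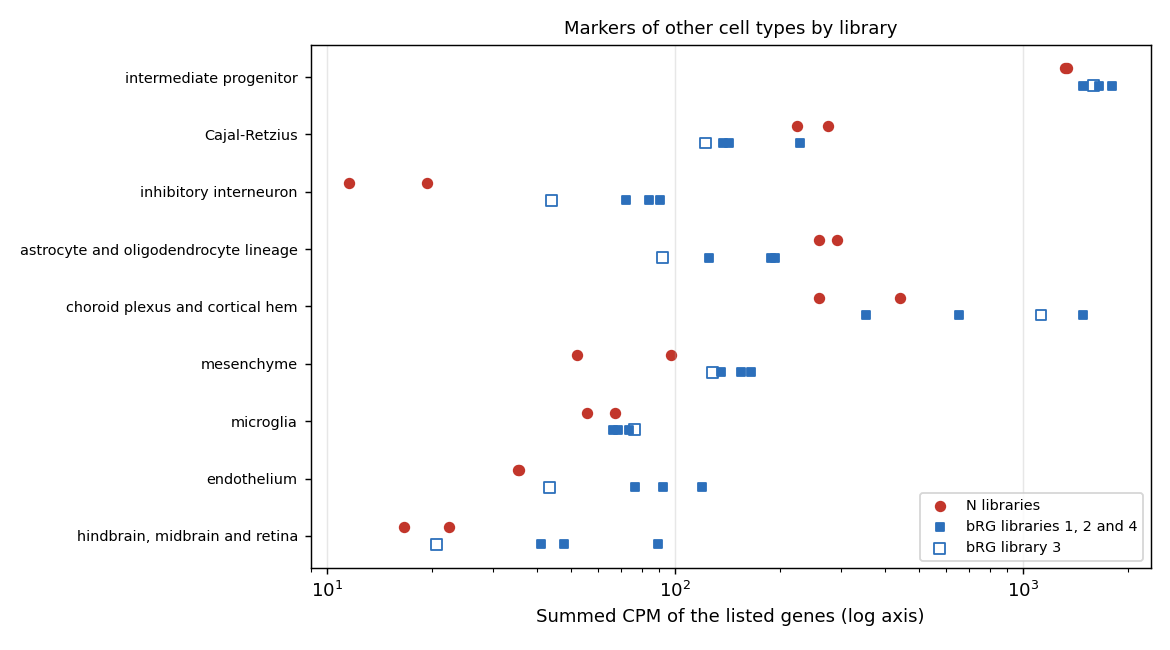
Summed CPM (log axis) of 9 marker lists, of intermediate progenitors and the 8 other groups of cell types, by library, with circles for the 2 N libraries and squares for the 4 bRG libraries, of which library 3 is open. Interneuron, mesenchyme and endothelium sums are lower in both N libraries than in every bRG library. The astrocyte and oligodendrocyte lineage sum is higher in both, although the median log2 fold change of its 13 tested members is -1.14, with 1 called higher and 1 lower.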

How the data were processed

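Raw read counts per gene symbol, not normalized, were deposited by the authors in 2 tables, 1 on the human build hg38 and 1 whose name gives gorGor6. Per the submitters' processing notes STAR and hg38 were used. Not given in the sources used here are the counter, annotation and strandedness, so counts of overlapping genes and close paralogs are uncertain. The hg38 table was used throughout, and gorGor6 for X-linked genes and as an alternative.

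A single fit with group means held all 13 libraries (edgeR 4.0.16, R 4.3.3, quasi-likelihood F-test after TMM scaling, filterByExpr at a minimum count of 10), and so shares 1 estimate of the spread. Calls are Benjamini-Hochberg adjusted p under 0.05 over all genes. Standard errors were derived from each fold change and its F statistic. Between libraries of a group, chi-square per degree of freedom was 13.8 to 92.4, and no library was treated as a duplicate. The tests were first checked on simulated data with 200 changed genes.

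Members and lists were chosen with earlier results of these data known. Named genes are the 15 leading ones each way, up to 5 called members per list and direction with the smallest p, and identity genes. ACTB, ACTL6A, PTCH1, SLC12A5, SLC17A7, SNAP25, SRRM4, TOP2A, TUBA1A, VCAN and VIM were added after their values were seen. Alternatives were DESeq2 1.42.0, its size factors, no filter, the gorGor6 table, a replicate block, N and bRG alone, limma 3.58.1 voom with quality weights, and the removal of each library. No sequences were used. Some genes of the lists are not reported here by name.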

Additional observations from a re-analysis of the deposited data

Results flagged for a closer look

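Of 192 genes named from the hg38 table, 9 had 1 bRG library far from the other 3, by a rule on gaps in groups of 4 that chance meets in about 1 of 20 groups. Library 3 was the one apart in 6 of them. It was low in CNTN1 (4.60 CPM, against 16.0 to 18.0 in the others), KCNJ3 (0.707, against 3.76 to 4.00) and LAMB2 (76.5, against 116 to 120.1). It was high in GLI3 (821, against 506 to 544), NEUROD6 (333, against 159 to 187) and YAP1 (75.8, against 37.6 to 41.7). Library 4 was low in FGFR1 (398, against 462 to 466) and high in TUBA1A (1013, against 580.2 to 620.1). Library 2 was high in ST18 (67.3, against 56.2 to 57.3). All 9 genes kept their call and direction without the library named. The cause was not tested.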

How the results depend on the processing

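Against 3321 calls (1787 higher, 1534 lower), a fit of the N and bRG libraries alone gave 2027 (1052 and 975). DESeq2 called 2337 lower and limma voom with quality weights 2702 higher. The gorGor6 table gave 3587, of which 2545 were calls of the hg38 table too, 76.6% of those and 71.0% of its own. Removing 1 library gave 1698 to 4500 calls, 960 to 2363 higher and 738 to 2137 lower, and 17 to 31 calls among X-linked genes, against 28 with all libraries. The low end came without the unnumbered N library, with 1 N library left, assumed to vary like the other groups, and the high end without bRG library 3. The labels number the N libraries 1 and 3 and the columns 1 and 2, so number 1 alone could be matched between N and bRG. In their deviations from the group means, same-numbered libraries of different groups correlated by -0.013 to 0.387. Other pairs from different groups, with those of the unnumbered N library among them, correlated by -0.28 to 0.26. These ranges overlap, so whether the numbers pair the libraries cannot be told, and the main fit did not pair them. With the number as a replicate block, 1817 genes were called, 1063 higher and 754 lower, and 2 named calls were lost, FOXP2 and NEUROD4 (edgeR adjusted p = 0.0615 and 0.0708). Of 187 called genes named from the hg38 table, 185 kept their call and direction in each removal of a library (LHX2 and CUX1 did not), and 183 in every alternative; 184 were tested on gorGor6, and 3 fold changes moved by over 1.5 times there, those of CELSR1, NOTCH2 and PLPP3. Over all alternatives 35 of 192 named genes moved by over 1.5 times, 21 of them in a removal of 1 library and 17 in the block, and PDGFD spanned the widest range, -7.36 to -3.33. Of the genes not called, ACTL6A spanned -0.60 to 0.19 over removals of a library, positive without N library 1 or bRG library 3 (0.13), in the block (0.0802) and in voom (0.25). The cause was not tested. Depth limits low genes: the fall of TFAP2C rests on 5 counts in N.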

Other observations

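Outside the lists, 12 called genes with large differences in mean CPM were picked after the values were seen, so they are given as a description. On the higher side the transcriptional regulators NFIB and BCL11A were the most abundant, with NFIB at 4352 ± 446 CPM in N and 1449 ± 562 CPM in bRG (SD, n = 2 and 4) and BCL11A at 4348 ± 221 CPM in N and 1637 ± 516 CPM in bRG (SD, n = 2 and 4). MYT1L, a repressor of non-neuronal genes, had 1175 ± 128 CPM in N and 76.7 ± 24.6 CPM in bRG (SD, n = 2 and 4), and RUNX1T1, a corepressor, had 1705 ± 109 CPM in N and 115 ± 34.5 CPM in bRG (SD, n = 2 and 4). SEZ6, a membrane protein of dendrites, measured 1987 ± 38.1 CPM in N and 145 ± 26.4 CPM in bRG (SD, n = 2 and 4), and NFASC, the adhesion molecule neurofascin of axon initial segments, had 1820.0 ± 75.4 CPM in N and 264 ± 114 CPM in bRG (SD, n = 2 and 4). The log2 fold changes of these 6 genes lay between 1.41 and 3.94.

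On the lower side ADGRV1, an adhesion receptor, measured 129.9 ± 24.4 CPM in N and 1909 ± 776 CPM in bRG (SD, n = 2 and 4). CREB5, a bZIP transcription factor, had 44.5 ± 0.465 CPM in N and 1233 ± 744 CPM in bRG (SD, n = 2 and 4), and LRP4, a low-density lipoprotein receptor relative, had 32.6 ± 9.49 CPM in N and 770.1 ± 531 CPM in bRG (SD, n = 2 and 4). ZBTB20, a zinc-finger repressor of progenitors and hippocampal neurons in mice, measured 54.0 ± 15.8 CPM in N and 572 ± 212 CPM in bRG (SD, n = 2 and 4), and MDK, the growth factor midkine and relative of pleiotrophin, had 119 ± 44.6 CPM in N and 687 ± 171 CPM in bRG (SD, n = 2 and 4). SYNE2, which links nuclei to the cytoskeleton, was the most abundant of them, at 539 ± 14.6 CPM in N and 2457 ± 998 CPM in bRG (SD, n = 2 and 4). The libraries of N and bRG did not overlap in any of these 12 genes, as their choice required.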
